A study of Mus musculus with 8 samples.

Results

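Reads from the transfer RNAs (tRNAs) of lysine, histidine and arginine were followed in small RNA libraries of mouse sperm. The members are the structural RNA rows of the deposited count table named for a lysine, histidine or arginine tRNA, grouped by the family name in the row. They came to 148 rows of 1010917, and to 122 once rows of a family with identical counts in all 8 libraries were counted once. These 122 rows fell into 9 families, with 85 lysine rows in 2 families, 3 histidine rows in 1 family and 34 arginine rows in 6 families. All tRNAs together had 729 distinct rows in 59 families. The samples are labelled spermatozoa of C57BL/6J mice, in 4 libraries labelled Control-Cessation (controls) and 4 labelled EtOH-Cessation (EtOH). The series title places the sampling 1 month after alcohol ended, so the comparison asks whether these tRNA reads differed from controls at that time. The labels give no dose, age, route or length of treatment, and do not say whether a library came from 1 animal, so p-values measure the spread between these libraries. The labels call the samples mature sperm, while the series design text speaks of the caput epididymis, the first part of the duct in which sperm mature.

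A tRNA carries an amino acid to the ribosome and pairs through its anticodon with the codon of the messenger RNA. Mature tRNAs are also cut, often in the anticodon loop, into fragments that are among the most abundant small RNAs of mature sperm, and epididymal vesicles are known to deliver some of them. The family names in the table give codons of the named amino acid, with Y for C or T. Lysine has the AAA and AAG families, histidine has CAY, and arginine has AGA, AGG and the CG families. The histidine tRNA is marked by an extra guanosine at its 5′ end, and the tRNA for AAA codons by a thiolated uridine in its anticodon. Some modified bases of tRNAs can stop the copying of RNA into DNA during library preparation. What the trailing _ of some family names stands for was not used here. Rows of a family are numbered copies, some of which had near-identical counts, so reads may be shared between them, and a count does not say which part of the tRNA was sequenced.

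Library totals ran from 3116421 to 6805989 counts. The sperm label was checked against 12 genes of late spermatids and sperm, all of which had exon counts, with sums of 549 to 680 CPM (counts scaled to 1000000 per library) in controls and 272 to 452 in EtOH libraries. Of 29 tested exon rows of these 12 genes, 26 were fitted below 0 and 3 above, with a median log2 fold change of -0.55. Among all 4600 exon rows tested, 1268 were below 0 and 3332 above, with a median of 0.70. Rows of 1 gene are not separate readings. The 10 genes of the epididymal epithelium summed to 371 to 545 CPM in controls and 659 to 14973 in EtOH libraries. Crisp1, Cd52 and Adam7 made up nearly all of the sum in EtOH replicate 2, at 10370, 2945 and 1630 CPM. Gpx5 had 19.1 CPM there and the remaining genes of the list at most 2.72, with Lcn8 at 0. The 6 leukocyte genes summed to 3.08 to 8.25 CPM in controls and 2.31 to 4.63 in EtOH libraries. EtOH replicate 2 stood apart, with 30.5% of its counts in exons against 7.07% to 10.4% in the other libraries. EtOH replicate 4 had 55% of its counts in structural RNA, the class that holds tRNA, against 27.9% to 37.5% elsewhere. Control replicate 2 had 27.7% of its counts in microRNA (miRNA), against 16.8% to 18.6% in the other controls. All EtOH libraries had less than any control in this class, at 6.96% to 10.1%. The part of these differences in the results below was not tested. In such bulk libraries fewer cells of a type and less RNA per cell cannot be told apart.

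By the main test 0 members passed over the whole table, and their directions differed by family. A filter on low counts left 64 of the 122 rows, and of these 35 were fitted above 0 and 29 below (44.8% and 55.2% over all rows), with a median log2 fold change of 0.05 (EtOH over control) against -0.09 over all 10234 rows tested. Of the 58 rows below the filter, the highest had 67 counts over the 8 libraries. By edgeR's quasi-likelihood test with Benjamini-Hochberg adjustment 0 of the 64 were past an adjusted p of 0.05, where 0.186% of all rows were. At an unadjusted p below 0.05, 7 member rows were higher, all of tRNA-Lys-AAG, where 17.9% of all rows were, and 1 was lower, of tRNA-Arg-CGG, where 9.15% were. DESeq2 put 1 member row past its adjusted threshold (17.1% of all rows) and limma voom with quality weights 0 (6.4%). In 0 member rows were all EtOH libraries above, or all below, every control in CPM, where 7.34% and 7.81% of rows were. The 64 rows made 51 groups when rows within 5% of each other in every library were counted once, so they are not separate signals.

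When every tRNA family was summed over its distinct rows and the whole table fitted again, 0 of the 9 families passed the edgeR test, where 0.173% of 9816 features did. Of the 9, tRNA-Lys-AAG (unadjusted p = 0.0336) and tRNA-Arg-CGG (0.0498) were below 0.05 before adjustment by edgeR, the first higher (18% of features) and the second lower (9.24%). Fitted values were above 0 in 3 families and below 0 in 6, and over all features in 45.3% and 54.7%. Each of the other tools called 1 family. DESeq2 put tRNA-Lys-AAG higher (adjusted p = 0.0476), and limma voom with quality weights put tRNA-Arg-CGA_ lower (adjusted p = 0.0396), where 17.1% and 15.2% of features passed. In no family did all 4 EtOH libraries lie above or below all 4 controls in CPM, where 7.27% and 8.04% of features did so. The plot of family sums by library shows the overlap in each.

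**Figure D1:**
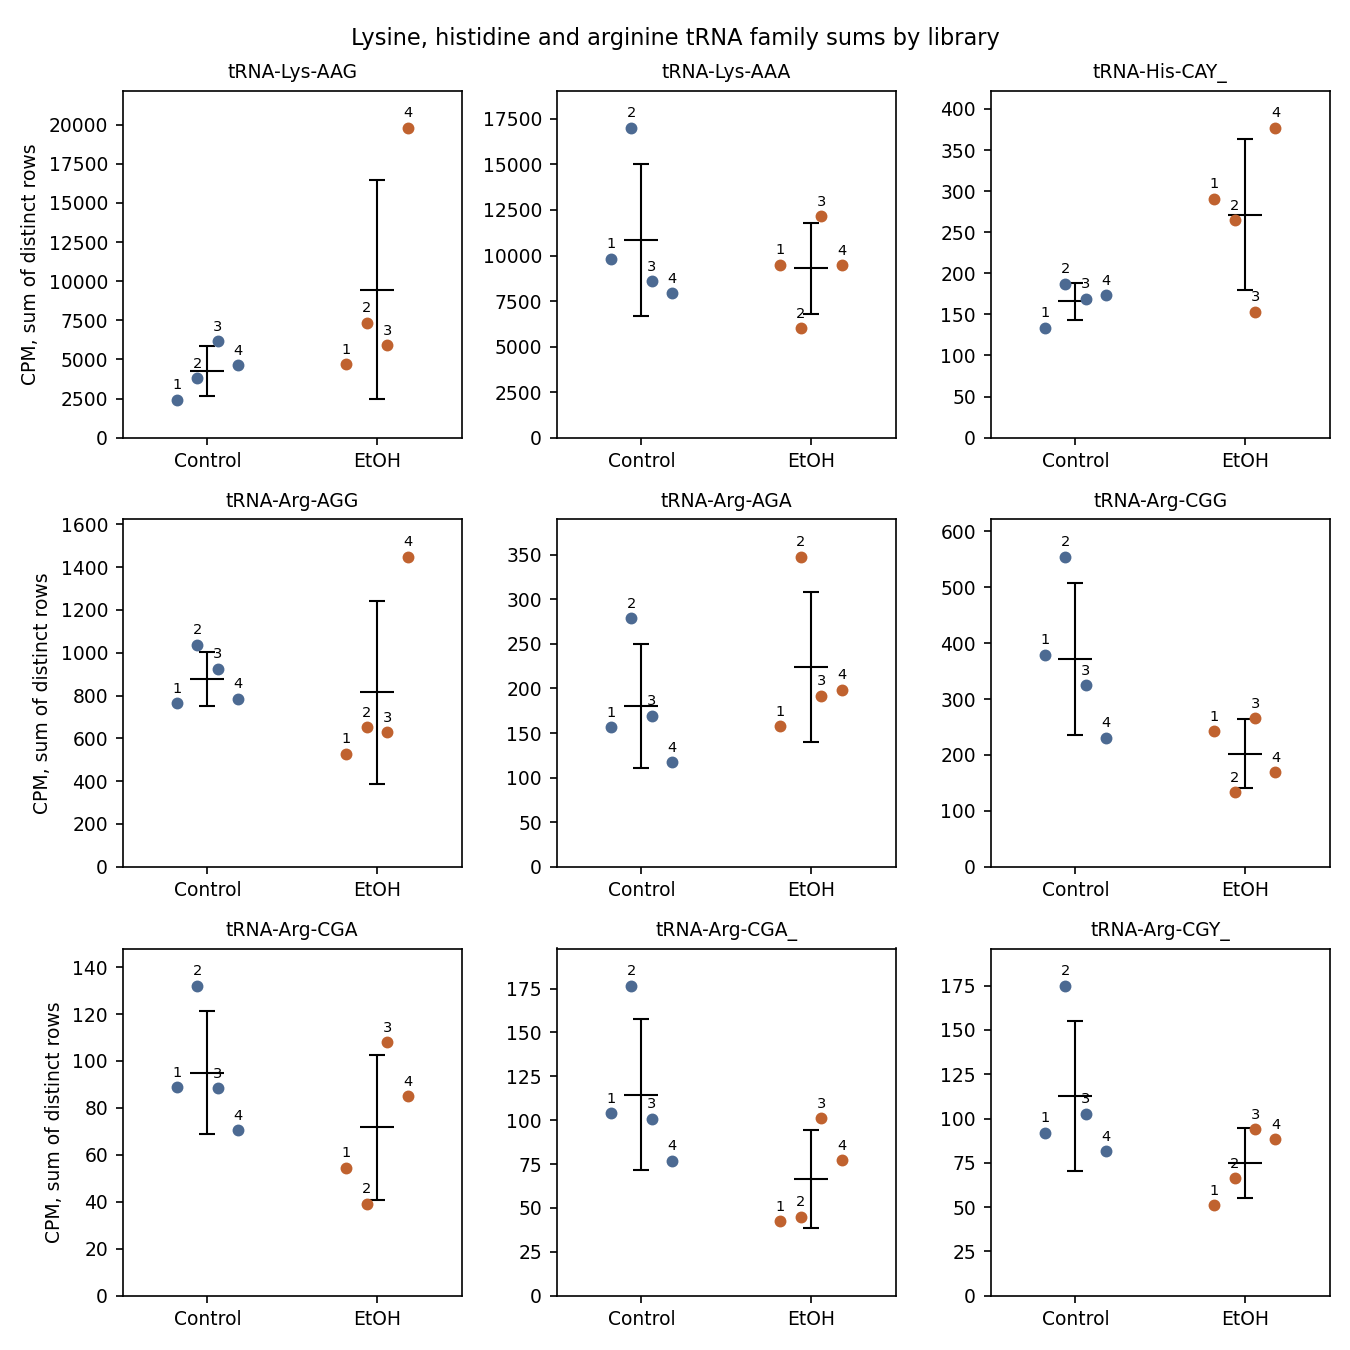
Summed CPM (counts scaled to 1000000 per library) of each of the 9 families, with 1 point per library, its replicate number beside it, and the mean and SD of each group (n = 4) in black. The EtOH points reach above the controls for tRNA-His-CAY_ in 3 libraries and for tRNA-Lys-AAG in 2, with EtOH replicate 4 at 19813 CPM.

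Histidine tRNA reads were higher than in any control in 3 of the 4 EtOH libraries. The tRNA-His-CAY_ family had 134, 187, 169 and 173 CPM in control replicates 1 to 4, and 291, 265, 153 and 377 in EtOH replicates 1 to 4. EtOH replicate 3 lay inside the control range and the others above it. The means were 166 ± 22.7 and 271 ± 92.3 CPM (SD, n = 4 each), with a log2 fold change of 0.71 (SE 0.39, edgeR adjusted p = 0.252). With the EtOH libraries whose identifier begins PO_M21 the log2 fold change was 0.53, and with those that begin PO_EM 0.66. Both forms occur among EtOH libraries only, and the labels do not say what they mark. Without EtOH replicate 4 it was 0.52.

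Most of the family's counts sat in 1 profile shared by 8 identical rows, which tRNA-His-CAY__copy8 stands for. Its counts per library gave 115, 147, 147 and 153 CPM in controls and 262, 227, 127 and 338 in EtOH libraries, again with EtOH replicate 3 among the controls. Its log2 fold change was 0.76 (SE 0.38, edgeR adjusted p = 0.214), and the values of copy9 and copy12 were 0.53 and 0.10.

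Measured against other tRNA reads, the histidine groups separated. Its share of all tRNA counts was 0.0517%, 0.0589%, 0.0512% and 0.0623% in controls. In EtOH libraries it was 0.108%, 0.13%, 0.0742% and 0.0864%. Identical rows entered these counts once and near-identical rows separately, so the value is not the share of histidine reads. Every EtOH library lay above every control on this scale, which is free of the scaling between libraries. Of the 57 tRNA families tested, 3 were separated in this direction (5.26%), the others being tRNA-Asp-GAY and tRNA-Thr-ACY_, named after their values were seen, and 0 in the other (0%). A fit within tRNA features alone gave a log2 fold change of 0.97 for the histidine family with an edgeR adjusted p of 0.11, which did not pass.

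**Figure D2:**
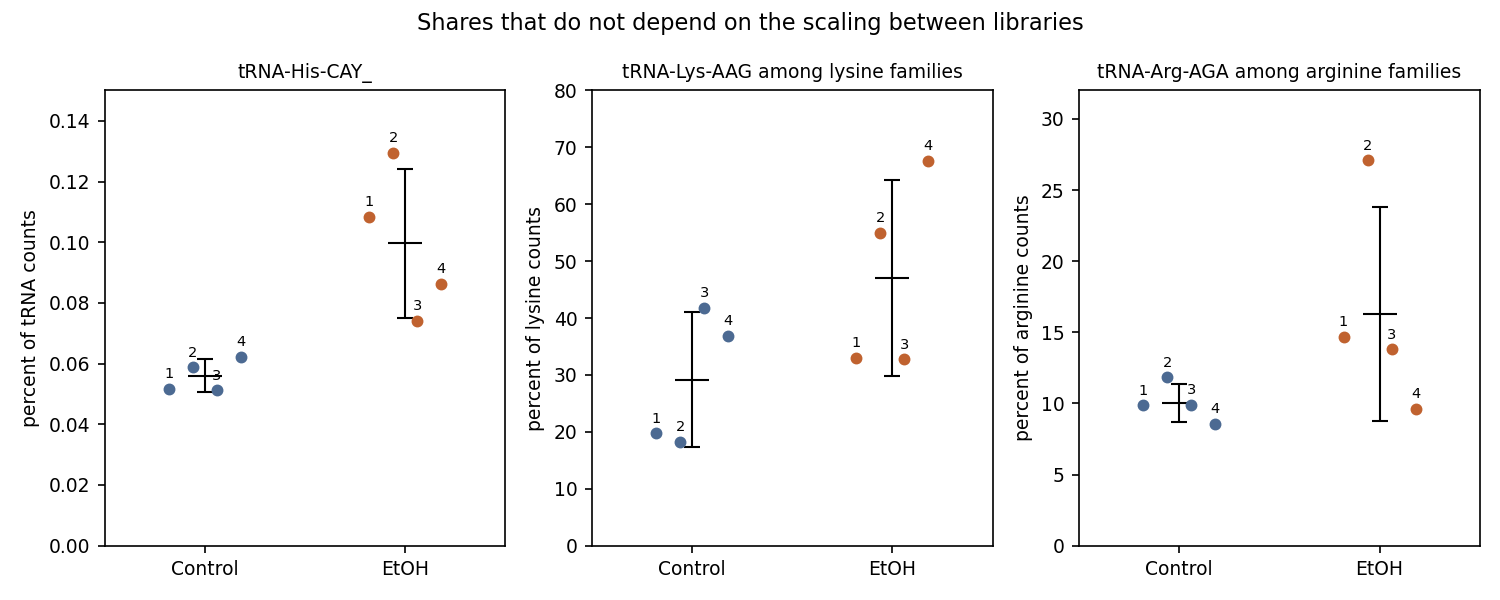
Share of tRNA-His-CAY_ in all tRNA counts (left), of tRNA-Lys-AAG in lysine counts (middle) and of tRNA-Arg-AGA in arginine counts (right), in percent, with 1 point per library, replicate numbers, and the mean and SD (n = 4). The lowest EtOH point of the left panel, at 0.0742%, is above the highest control, at 0.0623%, while the groups overlap in the other panels.

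The lysine family of AAG codons had the highest fitted value of the 9, and EtOH replicate 4 carried much of it. tRNA-Lys-AAG had 2419, 3808, 6175 and 4629 CPM in controls and 4689, 7355, 5924 and 19813 in EtOH libraries. EtOH replicates 1 and 3 lay within the controls, replicate 2 just above them and replicate 4 far above. The means were 4258 ± 1571 and 9445 ± 6997 CPM (SD, n = 4 each), a ratio of 2.22 (log2 fold change 1.16, SE 0.49, edgeR adjusted p = 0.149). Leaving out EtOH replicate 4 brought the EtOH mean to 5989 ± 1334 CPM (SD, n = 3), with a log2 fold change of 0.51 (edgeR adjusted p = 0.474). With the PO_M21 libraries alone it was 0.25, and with the PO_EM libraries, which include replicate 4, 1.57.

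Copies within tRNA-Lys-AAG followed 2 patterns. An abundant set of 7 rows, each with a control mean of at least 563 CPM, was highest in EtOH replicate 4 without exception. A sparse set of 22 tested rows, each with a control mean of at most 27.3 CPM, was highest in EtOH replicate 2 for 20 rows and in control replicate 2 for the other two, copy181 and copy10. Some sparse rows may share reads as well. For example, copy37 and copy92 had the same count in every EtOH library, so the 22 rows are not separate signals. Over all rows tested 30.7% were highest in EtOH replicate 2, 7.94% in EtOH replicate 4 and 18.5% in control replicate 2. Among tested tRNA rows these shares were 13.6%, 33.7% and 46.4%, and among exon rows 58.3% and 8.24% for the EtOH libraries. The split between the sets was chosen after the values were seen.

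In the abundant set, tRNA-Lys-AAG_copy169 had 389, 625, 905 and 745 CPM in controls and 857, 1183, 1086 and 3206 in EtOH libraries. EtOH replicate 1 lay below control replicate 3, and the other EtOH libraries above every control. Its log2 fold change of 1.25 (SE 0.47) had the lowest p of all members (edgeR adjusted p = 0.114), and it was the row that DESeq2 called (adjusted p = 0.0242). EtOH replicate 4 carried much of this value. Without it the EtOH mean went from 1583 ± 1091 (SD, n = 4) to 1042 ± 167 CPM (SD, n = 3), against 666 ± 218 in controls (SD, n = 4), and the log2 fold change was 0.68 (edgeR adjusted p = 0.304). The other 6 abundant rows carried near-identical counts, with log2 fold changes of 1.17 each and an edgeR adjusted p of 0.163. In tRNA-Lys-AAG_copy102, for example, EtOH replicate 4 was at 2734 CPM and the other EtOH libraries at 614 to 958. Its EtOH mean was 1268 CPM with that library and 780 ± 172 without it (SD, n = 3), against a control mean of 564. With counts this close, the 6 rows are not separate measurements.

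Among the sparse rows, tRNA-Lys-AAG_copy145 had 21.6, 29.2, 16.9 and 13.7 CPM in controls and 17.9, 61.8, 22.7 and 14.9 in EtOH libraries. tRNA-Lys-AAG_copy160 had 11.6, 14.3, 9.6 and 7.94 CPM in controls and 8.97, 44.9, 10.6 and 7.11 in EtOH libraries. Outside EtOH replicate 2 the EtOH values of both copies lay within or just below the controls. Some other sparse rows were not raised in that library alone. tRNA-Lys-AAG_copy74 had 6.4, 11.3, 11.4 and 6.62 CPM in controls and 6.73, 22, 12.7 and 16.6 in EtOH libraries. Both copy74 and copy174 lay above every control in 3 EtOH libraries. These rows were chosen after their values were seen. The 22 rows had a median log2 fold change of 0.49, with 19 above 0 and 3 below, and 0 of them had an unadjusted p below 0.05. Summed, the 64 rows under 100 CPM, tested or not, had 183, 289, 219 and 152 CPM in controls and 150.3, 424, 235 and 208 in EtOH libraries. Without EtOH replicate 2 the EtOH mean of this sum was 198 ± 43.1 CPM (SD, n = 3), against 211 ± 58.9 in controls (SD, n = 4). EtOH replicate 2 is also the library with 14973 CPM of epididymal epithelium transcripts, 10370 of them from Crisp1. The part of these transcripts in the result was not tested.

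**Figure D3:**
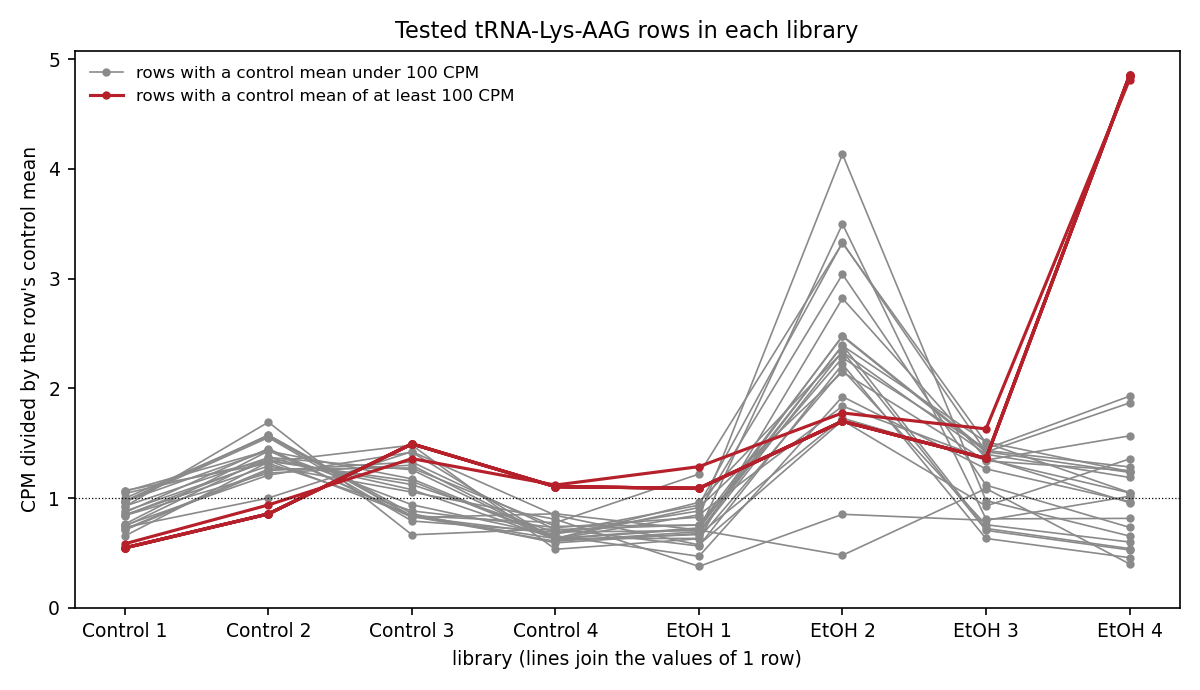
CPM of each of the 29 tested tRNA-Lys-AAG rows divided by the row's control mean, in each library, with the 7 abundant rows in red and the 22 sparse rows in grey. The red rows peak in EtOH replicate 4 and 20 of the grey rows in EtOH replicate 2.

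The lysine family of AAA codons did not separate the groups. tRNA-Lys-AAA had 9834, 17018, 8601 and 7923 CPM in controls and 9507, 6015, 12156 and 9475 in EtOH libraries. Control replicate 2 was the highest library and EtOH replicate 2 the lowest, with the other EtOH libraries inside the control range. Means were 10844 ± 4191 and 9288 ± 2518 CPM (SD, n = 4 each; log2 fold change -0.22, SE 0.38, edgeR adjusted p = 0.784), and without control replicate 2 the log2 fold change was 0.13. Nearly all of this sum came from 5 near-identical rows, of which tRNA-Lys-AAA_copy3 had 2147 ± 829 and 1837 ± 507 CPM (SD, n = 4 each). The tested row with the lowest p, tRNA-Lys-AAA_copy1, had 10.9, 20.6, 11.1 and 8.83 CPM in controls and 7.43, 3.81, 11.4 and 7.8 in EtOH libraries, below the lowest control in 3 of them (log2 fold change -0.74, edgeR adjusted p = 0.296).

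The balance between the lysine families varied widely within each group. AAG made up 19.7%, 18.3%, 41.8% and 36.9% of lysine counts in controls and 33%, 55%, 32.8% and 67.6% in EtOH libraries. The range of the controls covered EtOH replicates 1 and 3. The ratio of counts of the most abundant AAG row (copy169) to the most abundant AAA row (copy3) ran from 0.185 to 0.533 in controls and from 0.451 to 1.70 in EtOH libraries, so the AAG row exceeded the AAA row only in EtOH replicates 2 and 4. Lysine rows with distinct counts summed to 1.38% ± 0.288 of all counts in controls and 2% ± 0.667 in EtOH libraries (SD, n = 4 each). Reads shared between copies can enter this sum more than once, while the total of all counts also held identical rows. The value is thus not the share of lysine reads.

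Of the 6 arginine families AGA was fitted above 0 and AGG and the 4 CG families below 0, with 0 past the edgeR threshold. tRNA-Arg-AGA had 156, 279, 169 and 117 CPM in controls and 158, 348, 192 and 199 in EtOH libraries, where only EtOH replicate 2 lay above the controls (log2 fold change 0.30, SE 0.41, edgeR adjusted p = 0.713). Without EtOH replicate 2 the log2 fold change was 0.04. Its most abundant row, tRNA-Arg-AGA_copy19, had 158 ± 60.6 and 193 ± 74.4 CPM (SD, n = 4 each), or 156 ± 18.6 in the EtOH libraries without replicate 2 (SD, n = 3). The row with the lowest p, tRNA-Arg-AGA_copy16, had 4.5, 8.53, 7.07 and 4.41 CPM in controls and 7.85, 18.2, 10.9 and 8.84 in EtOH libraries. In 3 EtOH libraries it lay above every control (log2 fold change 0.90, SE 0.42, edgeR adjusted p = 0.192).

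The CGG family had the lowest fitted value among the members. tRNA-Arg-CGG had 379, 555, 324 and 231 CPM in controls and 242, 133, 266 and 169 in EtOH libraries. EtOH replicates 2 and 4 lay below the lowest control and the others above it. The means were 372 ± 136 and 202 ± 61.9 CPM (SD, n = 4 each; log2 fold change -0.88, SE 0.41, edgeR adjusted p = 0.184). All 3 of its rows were fitted below 0, and tRNA-Arg-CGG_copy1, the most abundant row with also the smallest p, stood at 248 ± 90.5 and 128 ± 44.8 CPM (SD, n = 4 each; log2 fold change -0.95, SE 0.41, edgeR adjusted p = 0.155).

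The other CG families had values on the same side. tRNA-Arg-CGA_ had 104, 177, 101 and 77 CPM in controls and 42.5, 44.9, 101 and 77.2 in EtOH libraries, so EtOH replicates 1 and 2 lay below the controls and replicates 3 and 4 within them (log2 fold change -0.78, SE 0.44, edgeR adjusted p = 0.273). These pairs are also the 2 identifier forms, and the log2 fold change was -1.61 with the PO_M21 libraries and -0.31 with the PO_EM libraries. The family had 1 tested row, tRNA-Arg-CGA__copy1 (log2 fold change -0.79). tRNA-Arg-CGY_ had 113 ± 42.3 and 74.9 ± 20 CPM (SD, n = 4 each; log2 fold change -0.59), and its most abundant row, tRNA-Arg-CGY__copy8, was at -0.68. tRNA-Arg-CGA had 94.9 ± 26.2 and 71.7 ± 30.8 CPM (SD, n = 4 each; log2 fold change -0.40), with tRNA-Arg-CGA_copy2 at 53 ± 16.4 and 31.2 ± 9.6 CPM and below the lowest control in 3 EtOH libraries (edgeR adjusted p = 0.225). For CGA the PO_M21 libraries gave -1.21 and the PO_EM libraries 0.06. Control replicate 2 was the highest library for CGA_, CGY_ and CGA. With 1 library left out the family values lay between -1.03 and -0.42 for CGA_ and between -0.69 and -0.25 for CGY_. For CGA they lay between -0.64 and -0.09.

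The direction of tRNA-Arg-AGG depended on which libraries were used. Its most abundant row, tRNA-Arg-AGG_copy4, had 418, 519, 634 and 538 CPM in controls and 309.6, 265, 329 and 1213 in EtOH libraries. EtOH replicates 1 to 3 lay below the lowest control and replicate 4 above the highest, so the fitted value was 0.01 with all libraries and -0.78 without EtOH replicate 4 (edgeR adjusted p = 0.996 and 0.209). The other 5 tested rows of the family were highest in control replicate 2, and among the 6 the smallest p belonged to tRNA-Arg-AGG_copy13, at 137 ± 43.4 and 107 ± 32.2 CPM (SD, n = 4 each). As a sum the family had 878 ± 128 and 815 ± 426 CPM (SD, n = 4 each; log2 fold change -0.10), or 603 ± 66.6 CPM (SD, n = 3) in the EtOH libraries without replicate 4. Its log2 fold change was -0.81 with the PO_M21 libraries and 0.23 with the PO_EM libraries.

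Ratios of counts between families of 1 library do not depend on the scaling, and compare counts rather than amounts of tRNA. The ratio of AGA to CGA_ counts was 1.5, 1.58, 1.68 and 1.52 in controls and 3.72, 7.75, 1.90 and 2.58 in EtOH libraries. That of AGA to CGG was 0.413, 0.503, 0.522 and 0.507 in controls and 0.652, 2.61, 0.723 and 1.18 in EtOH libraries, and that of AGA to CGY_ 1.43 to 1.70 and 2.04 to 5.26. In each of these ratios all EtOH libraries lay above all controls, with EtOH replicate 2 the highest. Of the 36 pairs among the 9 families 8 did not overlap between groups (22.2%), against 11.4% of the 1596 pairs of all tested tRNA families. The other 5 of the 8 were AGG to histidine and AGG to Lys-AAG, both lower in EtOH libraries, and CGA_ to Lys-AAA, CGG to Lys-AAA and CGY_ to Lys-AAG, also lower. The ratio of AGG to histidine counts, for example, was 4.54 to 5.70 in controls and 1.81 to 4.11 in EtOH libraries. Pairs share families, so these 8 are not separate results, and no test was made on them.

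As a share, AGA held 9.87%, 11.9%, 9.90% and 8.58% of arginine counts in controls and 14.7%, 27.1%, 13.8% and 9.61% in EtOH libraries, where EtOH replicate 4 lay within the controls. CGG held 20.8% ± 3.46 and 15% ± 6.87 and AGG 51% ± 6.07 and 53.8% ± 11.1 (SD, n = 4 each). Arginine rows with distinct counts summed to 0.161% ± 0.0308 of all counts in controls and 0.156% ± 0.0388 in EtOH libraries (SD, n = 4 each). As for lysine, this is not the share of arginine reads.

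Set among all tRNA families, the members were spread over the whole order. By fitted value tRNA-Lys-AAG was 3rd, tRNA-His-CAY_ 5th and tRNA-Arg-AGA 9th of the 57 families tested. tRNA-Arg-AGG was 25th, tRNA-Lys-AAA 29th, tRNA-Arg-CGA 34th and tRNA-Arg-CGY_ 44th, while tRNA-Arg-CGA_ and tRNA-Arg-CGG were 52nd and 56th. The median of the 9 was -0.22, that of the 48 other families tested -0.19, and that of all features of this fit -0.08. Of the other families 14 were above 0 and 34 below, with 0 past the edgeR threshold and 5 below an unadjusted p of 0.05. All tested families of serine (6), leucine (7) and proline (3) lay below 0 and the 1 of aspartate above it, amino acids picked after their values were seen.

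**Figure D4:**
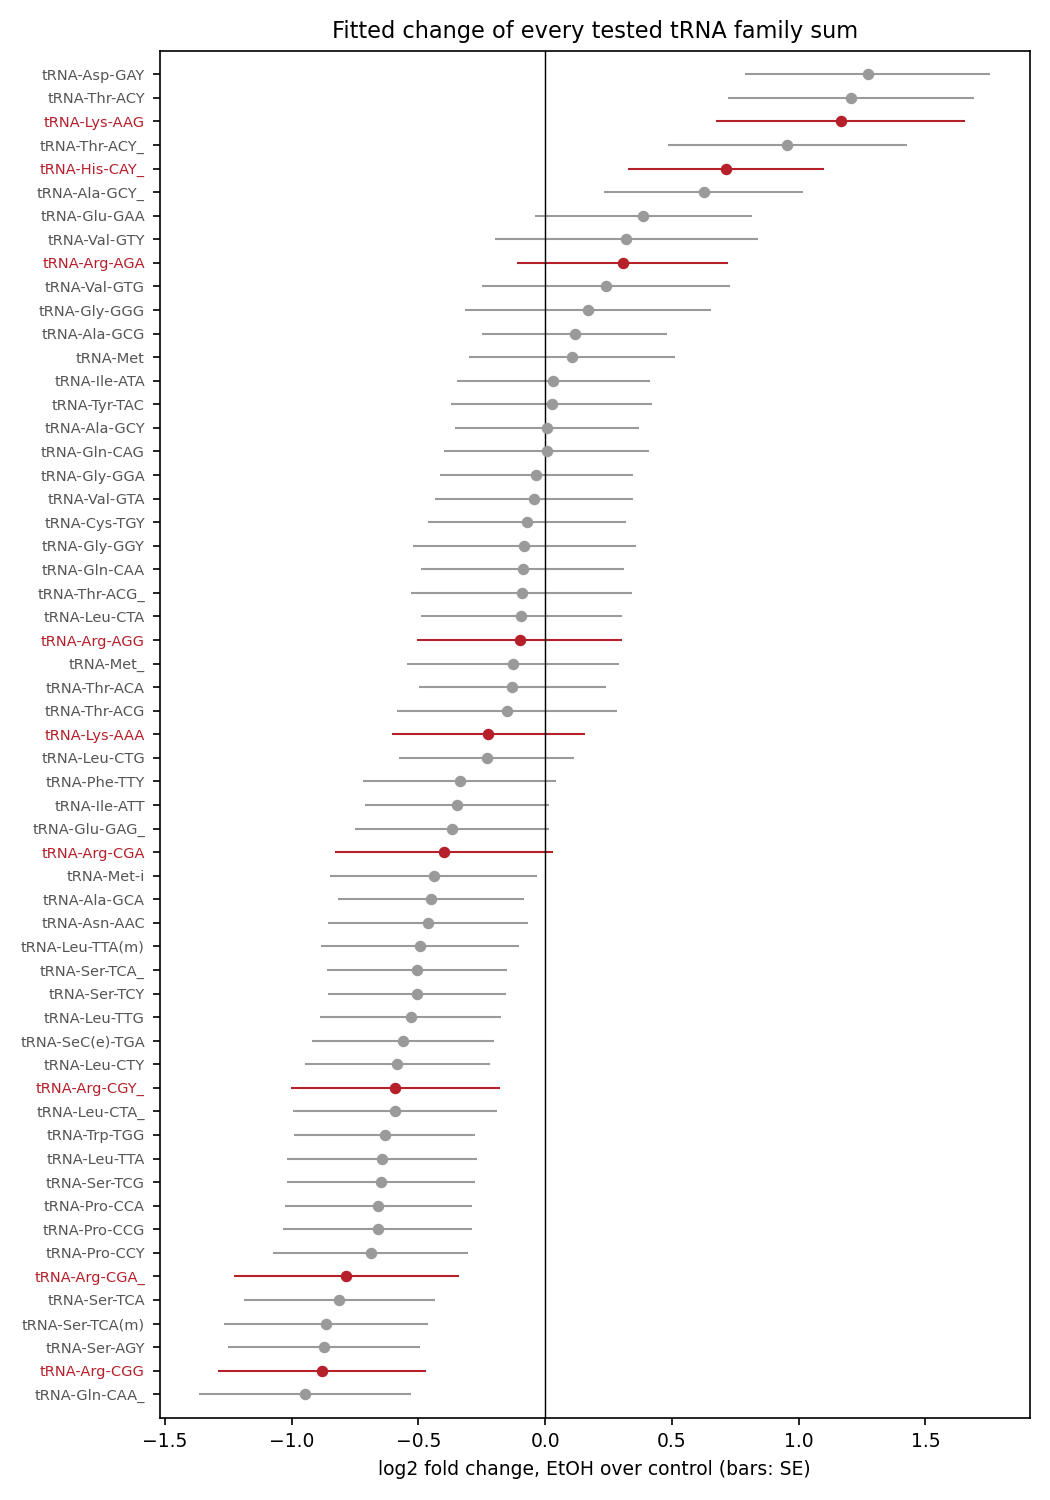
Log2 fold change (EtOH over control) with its standard error for each of the 57 tRNA family sums tested, the lysine, histidine and arginine families in red and all others in grey. The red points run from -0.88 for tRNA-Arg-CGG to 1.16 for tRNA-Lys-AAG, with neighbouring families closer to each other than their errors.

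EtOH replicate 4 was also the highest library for other tRNAs, with all 3 glycine and all 3 valine families peaking there. Of the other tested families 14 peaked in that library, as did 3 of the 9 members, while 26 and 5 peaked in control replicate 2. Against all tRNA counts Lys-AAG still differed between EtOH libraries, at 1.75%, 3.60%, 2.87% and 4.54%, with 0.934%, 1.20%, 1.87% and 1.67% in controls. On this scale EtOH replicate 1 alone lay within the controls. As for histidine, these values are not shares of reads.

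Messenger RNA fragments of enzymes that charge, modify or cut tRNAs were sparse, and not every listed enzyme need act on the tRNAs followed here. Exon rows of the lysyl, histidyl and arginyl tRNA synthetases had no row past the low-count filter. Their sum over 5 genes was 6.11 ± 2.60 CPM in controls and 22.3 ± 21.3 in EtOH libraries (SD, n = 4 each), with 53.9 CPM in EtOH replicate 2 and a mean of 11.8 ± 3.73 in the others (SD, n = 3). The 24 detected genes of tRNA modification summed to 25.5 ± 5.62 and 59.8 ± 48.1 CPM (SD, n = 4 each), also with no row tested. EtOH replicate 2 held 130.9 CPM of it, and the mean of the other EtOH libraries was 36.1 ± 9.95 CPM (SD, n = 3). Of the genes for processing, cleavage and use of tRNA, 29 had exon counts and 2 rows were tested. Both were fitted above 0, and 0 of the 2 passed by edgeR or had an unadjusted p below 0.05. Rtcb, the tRNA ligase, had 2.61 ± 1.27 and 15.6 ± 15.8 CPM, Dicer1, the nuclease that matures miRNAs, 7.76 ± 2.56 and 12 ± 7.44, and Rnaset2a, an RNase of the T2 family, 1.71 ± 0.722 and 10.6 ± 10.7 (SD, n = 4 each). Each was highest in EtOH replicate 2, at 38.9, 22 and 26.4 CPM, and without it the EtOH means were 7.77 ± 3.31, 8.72 ± 4.04 and 5.30 ± 2.10 CPM (SD, n = 3 each). Over all 4600 exon rows tested, 3332 were fitted above 0, with a median of 0.70.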

How the data were processed

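Small RNA of 8 mouse sperm libraries was analysed, 4 per group. The deposited table holds raw whole-number counts per annotated feature. Cutadapt is the only tool in the submitters' processing notes, and the first read alone was used, per the labels. For alignment, genome build, annotation and reads with several matches the method is not given in the sources used here. No coordinates are printed, and tRNA sequences were not used here.

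Columns were matched by title. Numbers of replicates follow accession order. Features passing filterByExpr (minimum count 10, minimum total 15) were normalized by TMM and tested with edgeR 4.0.16 in R 4.3.3 (quasi-likelihood test, threshold 0.05 after Benjamini-Hochberg adjustment over all features). CPM use the TMM-scaled totals (factors 0.863 to 1.18). Family sums run over rows with distinct counts, so reads shared between copies can enter more than once. Alternatives were DESeq2 1.42.0, voom of limma 3.58.1, other scalings, filters and sums, and each library left out. The main edgeR fit was also run on simulated counts with known fold changes. Its outcome is not given here and is not used as support. Named are all families and, in each, the row with the highest mean and the tested row with the lowest p, and the 3 enzyme genes with the highest summed CPM. The remaining histidine rows and further tRNA-Lys-AAG rows were named outside this rule. Red blood cell genes (5 of 6 with counts) summed to 16.1 to 37.7 CPM in controls and 1.497 to 17.5 in EtOH libraries. The members and lists were chosen with earlier results of these data known.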

Additional observations from a re-analysis of the deposited data

Results flagged for a closer look

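In 42 groups of 4 libraries examined (9 families and 12 rows), 4 held a library farther from its neighbours than Dixon's 95% limit allows, and chance flags about 1 group in 20. EtOH replicate 4 was high in 3 of them, at 1449 CPM for the tRNA-Arg-AGG family against 527 to 652 in the other EtOH libraries, at 1213 CPM for tRNA-Arg-AGG_copy4 against 265 to 329, and at 3206 CPM for tRNA-Lys-AAG_copy169 against 857 to 1183. The first of these rests on the second, since copy4 is the most abundant row of its family. Control replicate 1 was low for tRNA-His-CAY__copy8, at 115 CPM against 147 to 153 in the other controls.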

How the results depend on the processing

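No paired analysis was possible because the labels give no replicate numbers, and those used here only follow accession order. The count of member rows past the threshold was 0 in each edgeR alternative and by limma voom, and 1 by DESeq2. For family sums it was 0 in each edgeR alternative, 1 by DESeq2 (tRNA-Lys-AAG, log2 fold change 1.23) and 1 by limma voom (tRNA-Arg-CGA_, -1.02). Leaving out each library gave 0 to 0 for both counts. The share of all features called differed widely between these fits. For rows it ran from 0.00977% with piRNA cluster totals to 20.1% without EtOH replicate 3, and was 18.9% with the PO_M21 libraries, 7.99% with library size alone, and 3.21%, 5.18% and 0.0277% without EtOH replicates 1, 2 and 4. For family sums it was 8.54% with library size alone, 19.2% with the PO_M21 libraries and 21.7% without EtOH replicate 3. Of 180 family values over 20 alternative fits, 12 changed direction, and of 216 values of the 12 named rows over 18 fits 14 did. tRNA-Arg-AGG turned to 0.14 with library size alone, 0.10 within tRNA features, 0.23 with the PO_EM libraries, 0.035 with its most abundant row and 0.31 with piRNA cluster totals, a scale added after the data were seen. tRNA-Lys-AAA turned to 0.029, 0.081 and 0.044 in the first 3 of these and tRNA-Arg-CGA to 0.061 with the PO_EM libraries. Leaving out 1 library moved tRNA-Arg-AGG between -0.53 and 0.22 and tRNA-Lys-AAA between -0.35 and 0.13. Among rows, tRNA-Lys-AAA_copy3 turned to 0.013 with library size alone, 0.17 within tRNA features and 0.16 with the PO_EM libraries, and lay between -0.46 and 0.073 with 1 library left out. tRNA-Arg-AGG_copy4 turned to -0.21 by limma voom, -0.10 with a mean count of at least 10 and -1.04 with the PO_M21 libraries, and lay between -0.78 and 0.42 with 1 library left out. tRNA-Arg-AGG_copy13 turned to 0.12 within tRNA features and 0.032 with piRNA cluster totals. The cause of these turns was not tested. tRNA-Lys-AAG, tRNA-His-CAY_ and tRNA-Arg-AGA stayed above 0 and tRNA-Arg-CGG, tRNA-Arg-CGA_ and tRNA-Arg-CGY_ below 0 in all 20 fits. The scalings moved the median of all rows from -0.09 to -0.001 (median of ratios), 0.14 (library size alone) and 0.15 (piRNA cluster totals).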
